A study of Mus musculus with 12 samples.

Results

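The proteasome genes described here are the 43 genes of mouse liver whose symbol joins Psm, a letter from a to g and a number, without Psmb8, Psmb9 and Psmb10, among 12284 named genes of the deposited table. Polyadenylated liver RNA was sequenced in 12 libraries, 6 control (WT) and 6 with hepatocyte loss of both Acly and Acss2 (double knockout, DKO), the enzymes that make acetyl-CoA from citrate and from acetate. All mice carried Acly f/f; Acss2 f/f alleles and received an adeno-associated virus (AAV8) driven by TBG, a hepatocyte promoter, at 6 to 8 weeks of age. AAV8-TBG-Cre gave the DKO group and AAV8-TBG-GFP the WT group, so Cre, GFP and the loss of the 2 genes cannot be told apart, and cells other than hepatocytes should have kept both genes. A Western diet (Teklad TD.88137) started 1 week after injection and lasted 6 weeks in both groups. The labels do not say that each library came from its own mouse, so p-values measure the spread between libraries.

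The proteasome degrades proteins tagged with ubiquitin. Its core particle is a barrel of alpha rings, which gate the entry, and beta rings, which hold the proteolytic sites. The regulatory particle caps the barrel: its lid and base recognise and strip ubiquitin, and a ring of ATPases in the base unfolds the substrate and threads it inward. Dedicated chaperones assemble both particles, other activators can cap the core in place of the regulatory particle, and cells that lack proteasome activity raise the subunit genes together through the transcription factor Nfe2l1. In the liver it degrades, among others, short-lived enzymes of sterol synthesis.

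The 43 genes fell into 14 core subunits (Psma1 to Psma7 and Psmb1 to Psmb7), 17 regulatory subunits (6 ATPases, 3 other base subunits and 8 lid subunits), 7 assembly chaperones, 4 activators and 1 inhibitor. All values come from a table that the authors had filtered, and 4 further RefSeq symbols of the same pattern (Psma8, Psmb11, Psmc3ip and Psme2b) had no row in it. The members were selected on their symbols, and the family itself was chosen by the log2 CPM difference between these DKO and WT libraries, which was already known, so its fold changes and adjusted p-values are a description.

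In DKO liver the core subunits stood lower than in WT: all 14 had a log2 fold change below 0 (Psma3 stood at 0.009 under quantile normalization), with a median of -0.22 (86.0% of the WT level), and Psma6 and Psmb5 fell. Of the 17 regulatory subunits 16 were lower, with a median of -0.15 (90.3% of WT), and 0 passed the test. The 12 chaperones, activators and inhibitor had a median of 0.002, with 6 lower and 6 higher, a split that rests on genes near 0 whose sign turned with the scaling. Over all 12284 genes the median log2 fold change was 0.004 and 49.2% were below 0. Over the 3403 other genes at or above the level of the lowest of the 31 subunits it was -0.056, and 63.1% were below 0.

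A gene is said here to have risen or fallen when the limma fit over all genes gave it a Benjamini-Hochberg adjusted p below 0.05. By that rule 2 of the 43 members changed, beside 1.74% of all genes. These 2 fell and 0 rose, beside 1.12% of all genes that fell and 0.619% that rose. Of the 3403 other genes at or above the level of the lowest subunit, 106 fell (3.11%) and 17 rose. The WT and DKO libraries did not overlap for 6 members, all lower in DKO, beside 1.38% of all genes in that direction and 0.79% in the other. At an unadjusted p below 0.05 there were 14 members lower and 0 higher, beside 8.47% and 7.95% of all genes. Because the members' differences were known beforehand, nothing is read from these shares.

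**Figure D1:**
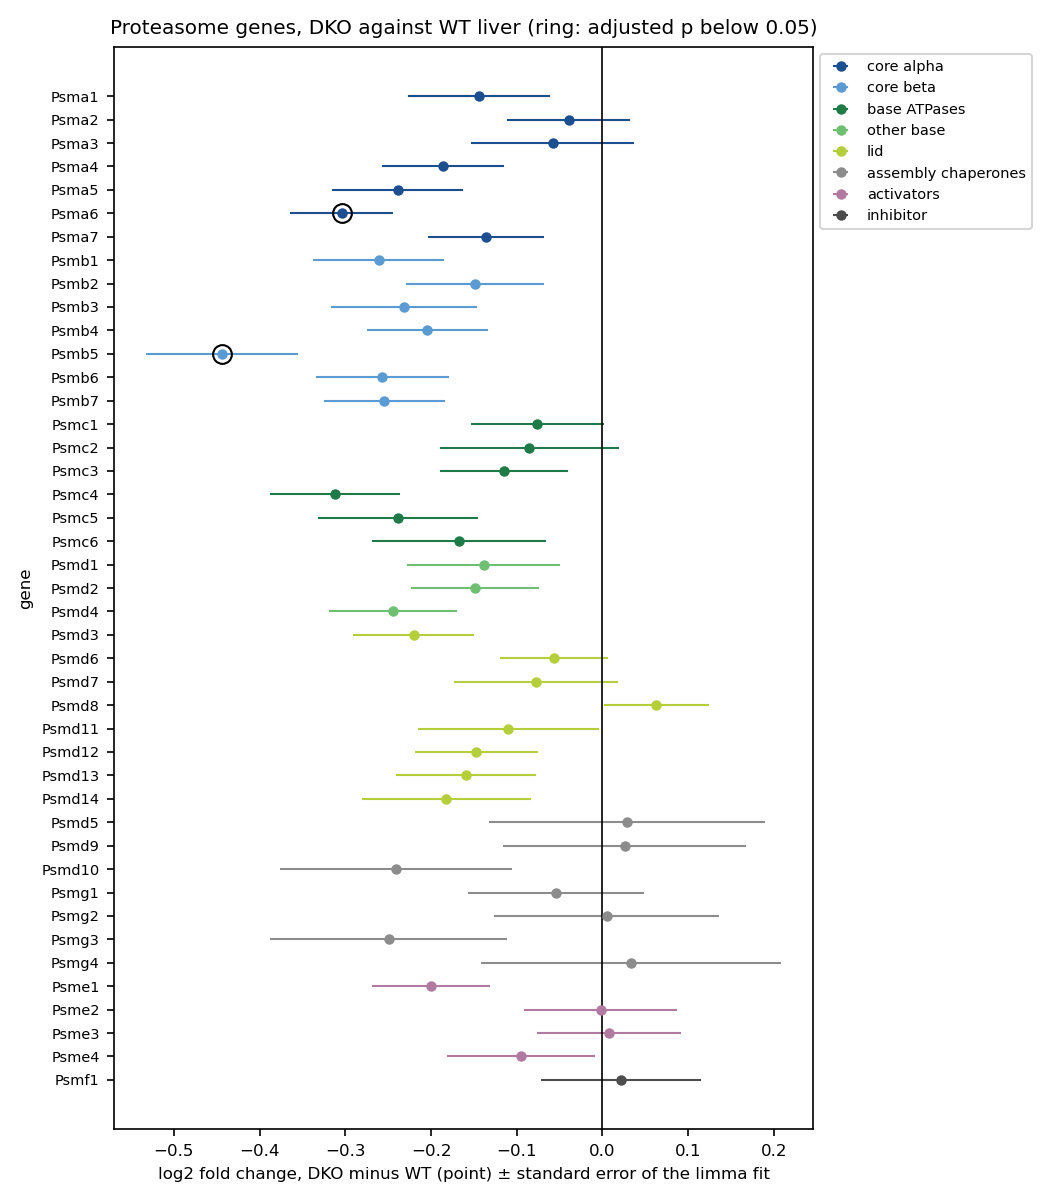
The plot gives the log2 fold change (DKO minus WT, horizontal axis) of each of the 43 proteasome genes with the standard error of the limma fit, coloured by role, and rings mark adjusted p below 0.05. All 14 core subunits lie left of 0, Psmd8 is the 1 regulatory subunit to the right of it, and the chaperones scatter on both sides.

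Psmb5 encodes the beta subunit with the chymotrypsin-like site, the main target of proteasome inhibitor drugs. Its WT libraries held 5.96, 6.10 and 6.29 log2 CPM (lowest, median and highest) and its DKO libraries 5.42, 5.72 and 5.82. All 6 DKO libraries thus lay below all 6 WT libraries, and DKO 3 and DKO 1 were lowest. The mean went from 6.11 ± 0.13 to 5.66 ± 0.16 log2 CPM (SD, n = 6 each), to 73.5% of WT, with a log2 fold change of -0.44 (SE 0.09, limma adjusted p = 0.0233). It was the largest fold change among the 43 members.

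Psma6, a subunit of the alpha ring, had the smallest spread between libraries of all members, with a within-group SD of 0.052. WT libraries held 5.99, 6.06 and 6.09 log2 CPM and DKO libraries 5.66, 5.74 and 5.82, again without overlap. The mean went from 6.05 ± 0.04 to 5.74 ± 0.06 log2 CPM (SD, n = 6 each), to 81.0% of WT, with a log2 fold change of -0.30 (SE 0.06, limma adjusted p = 0.0219). Both calls ended under quantile normalization (limma adjusted p = 0.0666 for Psma6 and 0.0551 for Psmb5), where the log2 fold changes were -0.27 and -0.40. Over all alternatives the adjusted p lay between 0.0142 and 0.0666 for Psma6 and between 0.0192 and 0.0644 for Psmb5. Psma6 lost its call without WT 2, WT 4, WT 6 or DKO 3 (adjusted p = 0.0604, 0.0551, 0.0560 and 0.0562), and Psmb5 without WT 2, WT 5, DKO 1 or DKO 3 (0.0587, 0.0644, 0.0506 and 0.0512). With 1 library left out, the log2 fold change stayed between -0.32 and -0.29 for Psma6 and between -0.48 and -0.40 for Psmb5. Both had an exact permutation p of 0.00216, the smallest possible, and 0.100 adjusted over all genes. By that test 0 of the 12284 genes had an adjusted p below 0.05.

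The promoters below are shown because 30 of the 31 subunits, all but Psmd8, had a log2 fold change below 0. Proteasome genes are also known targets of Nfe2l1, which binds antioxidant response elements, and of the CCAAT-binding factor NF-Y. Each line gives the 250 bases before the start site, 5′ to 3′ on the gene's strand, from RefSeq on GRCm38.p6, and capitals mark TGACNNNGC or CCAAT read on either strand. Psma6 has 2 annotated starts. Psmb6 and Psmb5 encode proteolytic subunits, Psmc4 is the regulatory subunit with the lowest fold change, and Psmd8 the only one above 0.
Psmb5 (GRCm38.p6, chr14:54617996-54618245, minus strand): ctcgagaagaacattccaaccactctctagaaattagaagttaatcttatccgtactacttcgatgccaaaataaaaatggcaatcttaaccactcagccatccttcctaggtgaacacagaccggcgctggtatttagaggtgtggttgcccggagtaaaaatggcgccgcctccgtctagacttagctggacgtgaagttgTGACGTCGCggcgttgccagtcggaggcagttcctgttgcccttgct
Psmb6 (GRCm38.p6, chr11:70525107-70525356, plus strand): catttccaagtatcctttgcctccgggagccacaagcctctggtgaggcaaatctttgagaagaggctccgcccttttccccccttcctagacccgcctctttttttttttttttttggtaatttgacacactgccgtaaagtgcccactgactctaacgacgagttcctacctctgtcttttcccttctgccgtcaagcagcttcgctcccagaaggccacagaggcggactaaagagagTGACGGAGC
Psma6 first start (GRCm38.p6, chr12:55383972-55384221, plus strand): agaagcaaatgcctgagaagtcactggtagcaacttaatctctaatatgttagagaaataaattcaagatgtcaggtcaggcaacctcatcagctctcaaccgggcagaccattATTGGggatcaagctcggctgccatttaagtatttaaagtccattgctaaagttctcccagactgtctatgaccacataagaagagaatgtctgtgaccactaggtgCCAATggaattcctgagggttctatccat
Psma6 second start (GRCm38.p6, chr12:55398575-55398824, plus strand): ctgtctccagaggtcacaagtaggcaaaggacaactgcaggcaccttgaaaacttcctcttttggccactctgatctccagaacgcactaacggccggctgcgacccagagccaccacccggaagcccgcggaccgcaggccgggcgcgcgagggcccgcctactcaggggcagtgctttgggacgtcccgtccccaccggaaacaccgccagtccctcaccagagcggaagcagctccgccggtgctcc
Psmc4 (GRCm38.p6, chr7:28050093-28050342, minus strand): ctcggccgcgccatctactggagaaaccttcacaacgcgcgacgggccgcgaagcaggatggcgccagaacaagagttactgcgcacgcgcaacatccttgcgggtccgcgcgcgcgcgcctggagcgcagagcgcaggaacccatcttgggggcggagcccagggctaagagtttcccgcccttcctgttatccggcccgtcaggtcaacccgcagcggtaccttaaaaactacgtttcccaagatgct
Psmd8 (GRCm38.p6, chr7:29180674-29180923, minus strand): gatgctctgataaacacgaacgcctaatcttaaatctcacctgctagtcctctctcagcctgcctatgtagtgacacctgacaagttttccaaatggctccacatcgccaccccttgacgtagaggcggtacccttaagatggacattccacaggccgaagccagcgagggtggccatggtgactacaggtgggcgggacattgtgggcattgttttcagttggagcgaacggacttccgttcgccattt
Psmb5 held TGACNNNGC from 47 to 39 bases before its start, and Psmb6 from 9 to 1 bases before. Psma6 held CCAAT letters only at the first of its starts, from 136 to 132 and from 29 to 25 bases before it, and neither motif at the second. Neither Psmc4 nor Psmd8 held either motif in this window.

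Of the 43 members, 36 had a promoter in the RefSeq table, 25 of them among the 31 subunits. TGACNNNGC stood in 4 of these 25 subunits (16.0%: Psmb5, Psmb6, Psmc6 and Psmd12), beside 13.8% of the 9221 genes of the expression table with a promoter and 11.5% of all 27018 genes with one of the same length. CCAAT stood in 10 of the 25 (40.0%) beside 40.6% and 37.5%. It stood in 6 of 11 core subunits (Psma1, Psma2, Psma3, Psma6, Psma7 and Psmb3) and in 4 of 14 regulatory subunits. Over both particles the median log2 fold change was -0.14 with CCAAT and -0.17 without it. With TGACNNNGC, in 4 subunits that include Psmb5, it was -0.21, and without TGACNNNGC it was -0.15. Both splits are a description. No match of TGACNNNGC overlapped one of CCAAT in these genes, and a match is a run of letters, not a shown binding site.

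Among the other beta subunits, the remaining proteolytic ones, Psmb6 (caspase-like) and Psmb7 (trypsin-like), did not pass the test. Psmb6 held 6.11, 6.27 and 6.52 log2 CPM in WT and 5.89, 6.05 and 6.15 in DKO, so that the highest DKO library exceeded the lowest WT library. This gave a fold change of -0.26 on the log2 scale (SE 0.08, limma adjusted p = 0.105). Psmb7 held 6.44, 6.61 and 6.78 in WT and 6.24, 6.35 and 6.47 in DKO, a log2 fold change of -0.25 (SE 0.07, limma adjusted p = 0.0863). The structural beta subunit Psmb1 did not overlap between the groups, with 6.52 to 6.89 log2 CPM in WT and 6.31 to 6.50 in DKO, and had a limma adjusted p of 0.0950. Psmb2, Psmb3 and Psmb4 had log2 fold changes of -0.15, -0.23 and -0.20, all with overlap of the groups.

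The alpha ring held subunits near 0 as well as separated ones. Psma5 did not overlap between groups (5.24 to 5.54 log2 CPM in WT, 4.99 to 5.21 in DKO) and had a log2 fold change of -0.24 (SE 0.08, limma adjusted p = 0.124). Psma2 and Psma3 were the closest to 0 in the core, with log2 fold changes of -0.039 and -0.058 (limma adjusted p = 0.841 and 0.820). Psma1, Psma4 and Psma7 lay between, at -0.14, -0.19 and -0.14. The median was -0.14 for the 7 alpha subunits and -0.25 for the 7 beta subunits.

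**Figure D2:**
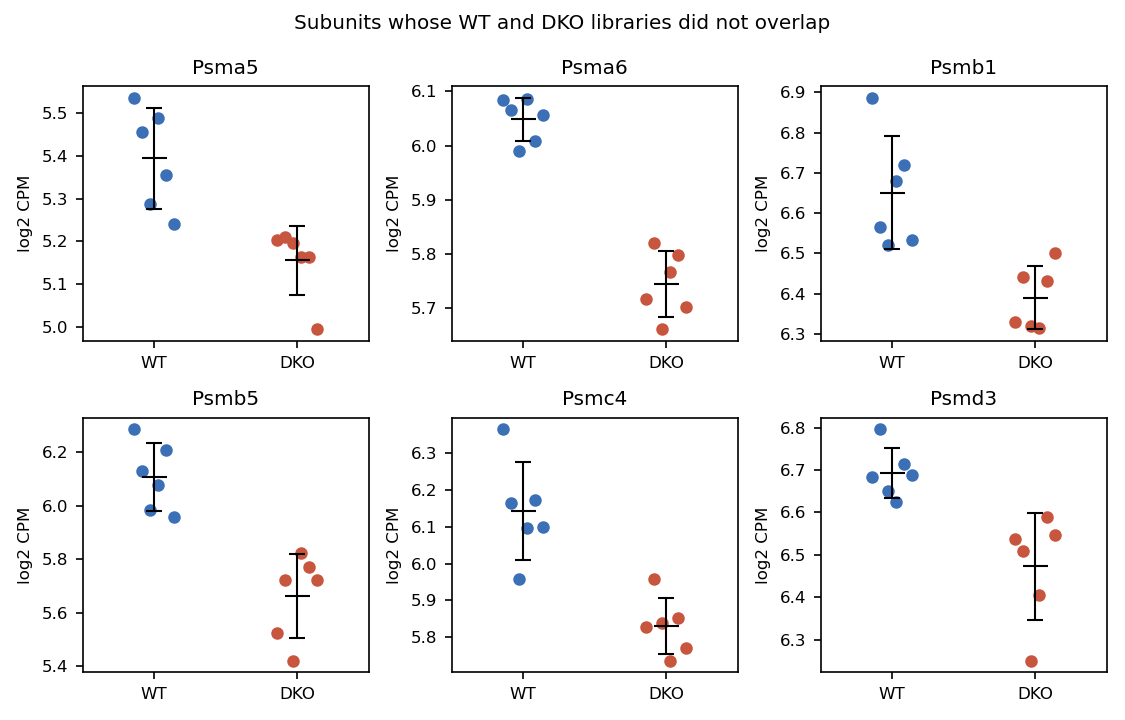
Each panel gives log2 CPM (vertical axis) of 1 subunit in the 6 WT and 6 DKO libraries, with the mean and SD of each group in black. These are the 6 subunits whose highest DKO library lies below the lowest WT library, from Psmc4, where the highest DKO and the lowest WT library differ by 0.0005, to Psma6, where 5.82 and 5.99 are apart.

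In the regulatory particle the ATPase Psmc4 lay lowest. It held 5.96, 6.13 and 6.36 log2 CPM in WT and 5.74, 5.83 and 5.96 in DKO, and the lowest WT library, WT 3, stood only 0.0005 above the highest DKO library, DKO 2. This was a log2 difference of -0.31 (SE 0.08) with a limma adjusted p of 0.0544. It was below 0.05 with array weights (0.0333), library medians subtracted (0.0415) and a filter at a mean of 3 log2 CPM (0.0461), and up to 0.115 otherwise. The other ATPases ranged from -0.24 (Psmc5) through -0.17 (Psmc6), -0.11 (Psmc3) and -0.085 (Psmc2) to -0.076 (Psmc1), and all overlapped between the groups.

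Of the other base subunits, the ubiquitin receptor Psmd4 had a log2 fold change of -0.24 (SE 0.07, limma adjusted p = 0.107), with 6.16 to 6.56 log2 CPM in WT and 5.97 to 6.19 in DKO. The large scaffold subunits Psmd1 and Psmd2 stood at -0.14 and -0.15. In the lid, Psmd3 did not overlap between groups (6.62 to 6.80 in WT, 6.25 to 6.59 in DKO) and had a log2 fold change of -0.22 (SE 0.07, limma adjusted p = 0.126). Psmd14, the lid enzyme that cuts ubiquitin chains off the substrate, stood at -0.18, and Psmd13, Psmd12, Psmd11, Psmd7 and Psmd6 at -0.16, -0.15, -0.11, -0.078 and -0.057. Psmd8, also of the lid, was the only subunit above 0, at 0.063 (SE 0.06, limma adjusted p = 0.666), with 6.43 to 6.61 log2 CPM in WT and 6.49 to 6.66 in DKO.

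The 2 particles were set side by side through the mean log2 CPM of their subunits in each library. For the core this mean was 6.02, 6.18 and 6.31 in WT (lowest, median and highest) and 5.92, 5.97 and 6.03 in DKO. The groups met only where DKO 2 (6.03) passed WT 3 (6.02). For the regulatory particle it was 6.10, 6.22 and 6.34 in WT and 5.97, 6.08 and 6.17 in DKO, with 2 DKO libraries (DKO 1 and DKO 2) above WT 3. Within a library, the regulatory mean minus the core mean averaged 0.046 ± 0.061 over WT libraries and 0.11 ± 0.064 over DKO libraries (SD, n = 6 each). The ranges, -0.042 to 0.109 and 0.020 to 0.18, overlapped. These values are not corrected for transcript length, so only their change between the groups is described. The medians of the fold changes differed by 0.071 on the log2 scale, beside an SD between libraries of 0.063, and no test was made of a score over chosen genes. By part, the median log2 fold change was -0.25 for the beta and -0.14 for the alpha subunits. It was -0.14 for the ATPases, -0.15 for the other base subunits and -0.13 for the lid, so the alpha subunits lay near the regulatory ones.

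Psmb5 was set beside the rest of its particle as a description. As the member with the lowest log2 fold change, it had to stand lower beside the other core subunits in DKO than in WT. Its level minus the mean of the other 13 core subunits was -0.192, -0.044 and -0.026 in WT and -0.537, -0.298 and -0.140 in DKO. The groups overlapped in WT 6 and DKO 4, while DKO 3 and DKO 1 (-0.503) lay far below the rest.

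**Figure D3:**
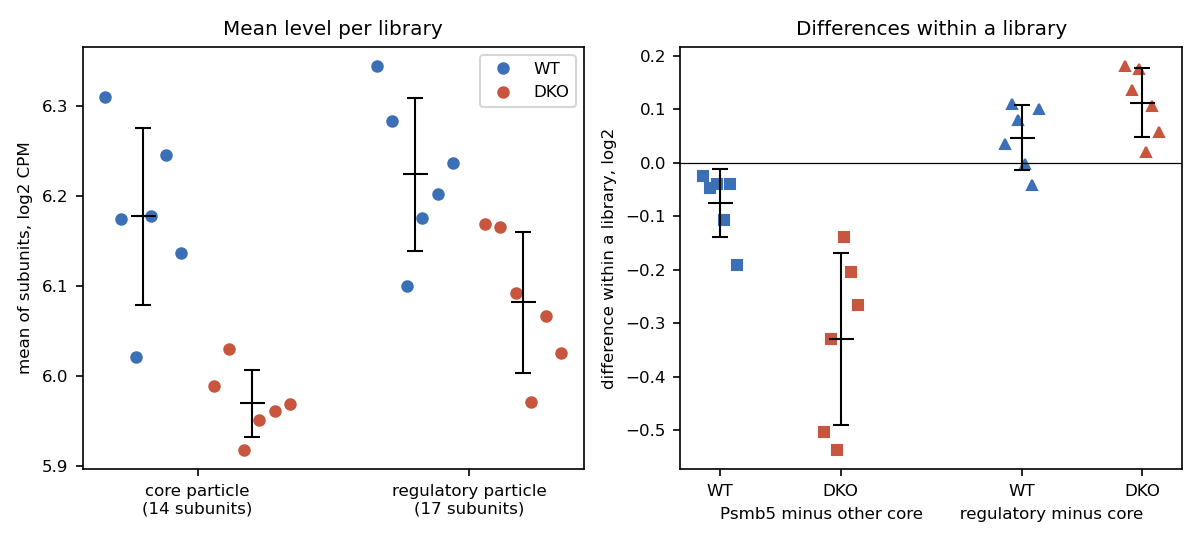
The left panel gives the mean log2 CPM of 14 core and 17 regulatory subunits in each library, and the right panel 2 differences within a library on the log2 scale, Psmb5 minus the other core subunits (squares) and regulatory minus core (triangles). Black marks are group means with SD (n = 6). DKO points sit below WT points in the left panel except where DKO 2 meets WT 3 in the core and DKO 1 and DKO 2 stand above WT 3 in the regulatory particle.

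How libraries were scaled against each other bears on these small differences. Under quantile normalization the median log2 fold change was -0.16 for the core and -0.057 for the regulatory particle, with 29 of 31 subunits below 0 and 0 called, while the median of the other genes at that level went from -0.056 to 0.005. Sums of the deposited CPM ran from 973428 to 1062194 in WT libraries and from 905964 to 1087992 in DKO libraries, and their part in the result was not tested.

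The assembly chaperones showed no common direction, with 3 of 7 below 0 and a median log2 fold change of 0.005. Psmg3, which works in alpha ring assembly, and Psmd10, a chaperone of the base, stood lowest at -0.25 and -0.24 (SE 0.14 and 0.14, limma adjusted p = 0.394 and 0.399). Psmg1, Psmg2 and Psmg4 stood at -0.055, 0.005 and 0.034, and Psmd5 and Psmd9, further chaperones of the base, at 0.029 and 0.026, and Psmg2, Psmg4, Psmd5 and Psmd9 changed sign under 1 or more alternatives. Psmd5 varied most of all members, with a within-group SD of 0.31, and its DKO libraries ran from 4.69 to 5.68 log2 CPM. Pomp, the maturation factor of the core, which is no member by symbol, held 6.00, 6.15 and 6.30 log2 CPM in WT and 5.68, 5.91 and 5.94 in DKO. Its groups did not overlap, yet its log2 fold change of -0.27 (SE 0.08) did not pass the test over all genes (limma adjusted p = 0.0928). Its exact permutation p was 0.00216, the smallest possible, and 0.100 adjusted over all genes, the same values as for the called Psma6 and Psmb5.

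Among alternative caps of the core, Psme1 had a log2 fold change of -0.20 (SE 0.07, limma adjusted p = 0.154), while its partner in the interferon-inducible activator, Psme2, stood at -0.002. Psme3 and Psme4, the activators of the nucleus, stood at 0.007 and -0.095, and Psmf1, a proteasome inhibitor, at 0.021 (limma adjusted p = 0.940). None of the 5 separated the groups, and Psme2, Psme3 and Psmf1 changed sign under 1 or more alternatives.

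Within each group, the subunits moved up and down together from library to library, a pattern that does not use the difference between the groups. After subtraction of each group's mean, the core mean and the regulatory mean had a Pearson r of 0.68 over the 12 libraries. The correlation of a subunit with the mean of the other 30 had a median of 0.60 (core) and 0.58 (regulatory particle). Over all other genes, whatever their level, the median r with the subunit mean was 0.007. Genes of like level were not set beside the subunits here, and the part of level and scaling in these correlations was not tested. Among subunits the correlation was highest for Psmc4 (0.93), Psmb2 (0.89) and Psmd6 (0.86). It was lowest for Psmc3 (0.13), Psmb7 (0.21), Psmd8 (0.24) and Psmb5 (0.24). Pairs within the core had a median r of 0.40, pairs within the regulatory particle 0.37 and pairs across them 0.34, and 65 of 465 pairs were below 0. Psmf1 (-0.67) and Psmg3 (-0.56) ran against the subunits, the lowest correlations among the 12 other members, and Psmd10 (0.71) had the highest. These correlations describe 12 libraries that share their scaling, and carry no p.

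By library, WT 1 was above its group's mean for 26 of 31 subunits and WT 3 for 2, and DKO 2 was above its group's mean for 26 and DKO 4 for 8. The highest of all 12 values was found in WT 1 for 14 subunits and in WT 2 for 8, and in any DKO library for 3 (DKO 1 for 2 and DKO 3 for 1). The lowest was found in any DKO library for 25 subunits (DKO 4 for 8, DKO 3 and DKO 6 for 6 each) and in WT 3 for the other 6. The family was chosen by its difference between the groups, so nothing is read from how these extremes split between WT and DKO. Without WT 1 the core median was -0.19, and without WT 3 it was -0.25.

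**Figure D4:**
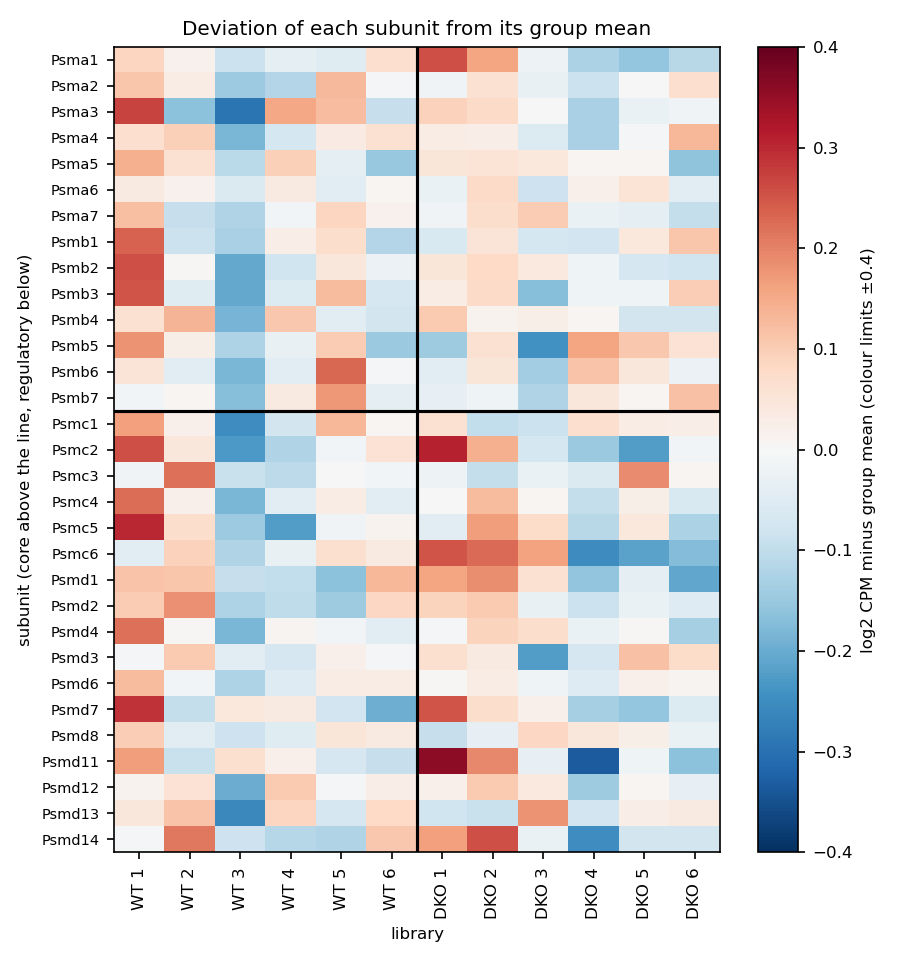
The map gives log2 CPM minus the mean of the library's own group for 14 core subunits (above the line) and 17 regulatory subunits (below it) in 12 libraries, red above and blue below 0. WT 1 and DKO 2 are mostly red (26 of 31 subunits each) and WT 3 is mostly blue (2 of 31 above 0).

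Genes outside the family with the most similar deviations over the 12 libraries were Ears2, a mitochondrial tRNA synthetase (r = 0.94), Mrpl30, a mitochondrial ribosomal protein (0.92), Mst1 (0.91), Coq7, an enzyme of ubiquinone synthesis (0.91), Cct3, a subunit of the cytosolic chaperonin (0.90), and Gcat, an enzyme of threonine breakdown (0.89). They were the 6 highest among genes outside the family whose mean level reached 3 log2 CPM. The highest of so many values of r over 12 libraries can be high without any relation, so no link to the proteasome is read from these 6 genes. None passed the test between the groups, and Coq7 had a log2 fold change of 0.43 (limma adjusted p = 0.0532), opposite in sign to the core.

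Subunit transcripts varied little. The SD within groups ran from 0.052 (Psma6) to 0.19 (Psmd11) over the 31 subunits, with a median of 0.11, beside a median of 0.18 over 2689 other genes in the same range of level (5.18 to 7.41 log2 CPM). For 30 of the 31 subunits, all but Psmd11, it was below that median.

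Levels of the members were ranked only per kilobase of transcript, with the median length of each gene's protein-coding transcripts in GENCODE M21. The differences within a library given above are in log2 CPM without regard to length, so their sign does not rank the particles. The genes of like level above were chosen on log2 CPM without regard to length. In WT the core subunits held a median of 73.3 CPM per kilobase and the regulatory subunits 44.0. The highest was Psmb6 (98.6 ± 9.5), followed by Psme1 (93.3 ± 6.2), Psmb4 (92.4 ± 7.7) and Psmb5 (90.9 ± 8.1; SD, n = 6 each), which lay within each other's spread. In DKO, Psmb5 stood at 67.0 ± 7.0, below Psmb6 (82.3 ± 5.0), Psmb4 (80.0 ± 3.7) and Psmb7 (70.6 ± 3.9). Among core subunits Psma2 was lowest, at 16.6 ± 1.3, with an annotated length of 2911 bases. Among regulatory subunits the levels ran from Psmd14 (25.1 ± 2.4) to Psmd4 (61.1 ± 5.6). The chaperones stood at 6.06 (Psmd10) to 14.9 (Psmg1) CPM per kilobase.

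**Figure D5:**
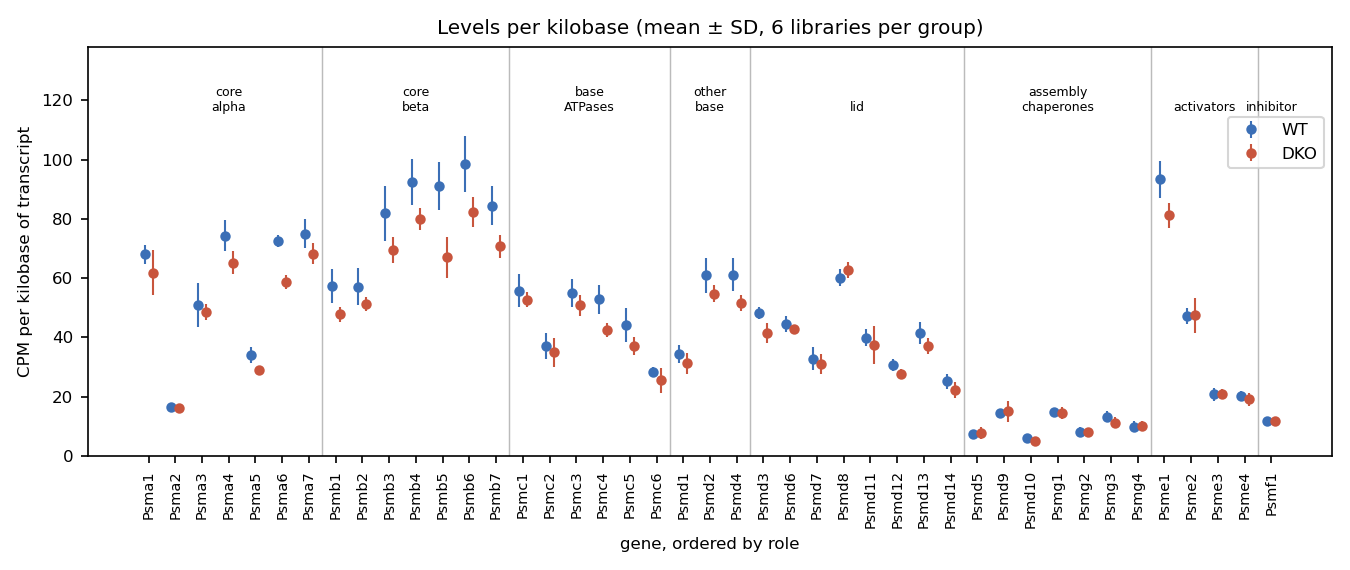
The plot gives CPM per kilobase of transcript (vertical axis, mean ± SD of 6 libraries) for the 43 genes in WT and DKO, ordered by role. Beta subunits reach 57.1 to 98.6 in WT and the chaperones stay at or below 14.9.

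The inducible beta subunits of immune cells and inflamed tissue, left out by the rule, did not pass the test. Psmb8 held 3.52 to 4.03 log2 CPM in WT and 3.36 to 4.78 in DKO, and Psmb9 3.19 to 4.02 and 3.01 to 5.05, so that DKO libraries lay on both sides of WT. Their log2 fold changes were 0.13 (SE 0.20) and 0.21 (SE 0.27), and that of Psmb10 was -0.089 (SE 0.17; limma adjusted p = 0.815, 0.758 and 0.850). Psmb8 and Psmb9 changed sign without DKO 4 (-0.039 and -0.019), and Psmb10 without DKO 1 or DKO 3 (0.005 and 0.014) and with array weights (0.007).

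Of 45 other genes of the pathway 44 were measured, and 0 rose or fell by limma, 1 being higher and 3 lower at an unadjusted p below 0.05. They comprised immunoproteasome genes with peptide transporters (5), proteasome partners (14 measured), the control route (14) and ubiquitin supply (11), with median log2 fold changes of 0.10, -0.033, 0.035 and -0.035. Of the regulatory subunits with other names, the ubiquitin receptor Adrm1 stood at -0.14 (SE 0.07, limma adjusted p = 0.324) and Sem1, listed as Shfm1, at -0.005 (SE 0.10). The deubiquitinases Uchl5 and Usp14 stood at -0.019 and 0.071. Nfe2l1 held 6.54, 7.15 and 7.25 log2 CPM in WT and 6.53, 6.79 and 7.07 in DKO, with a log2 fold change of -0.25 (SE 0.13, limma adjusted p = 0.372), and its deviations had an r of -0.51 with those of the subunits, in a range of -0.57 to 0.82 over the 44 genes. Ddi2, the protease that activates it, stood at -0.069, and Nfe2l2, its relative in the oxidative stress response, at 0.13 (limma adjusted p = 0.672 and 0.657). Faf2, an adaptor of protein extraction from the endoplasmic reticulum that was singled out after its values were seen, had the 1 separated pattern upward, with 5.39 to 5.62 log2 CPM in WT and 5.67 to 6.20 in DKO, a log2 fold change of 0.37 (SE 0.11) and a limma adjusted p of 0.0928 (exact permutation p = 0.00216, and 0.100 adjusted over all genes).

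The targeted genes followed the labels, with Acly at 6.56 to 9.35 log2 CPM in WT and 4.42 to 6.60 in DKO and Acss2 at 6.12 to 7.45 and 3.59 to 5.74. For Acly the highest DKO library, DKO 1, lay just above the lowest WT library, WT 5. DKO 1 was also the highest DKO library for Acss2 (5.74), where it lay below the lowest WT library, WT 4 (6.12). Without DKO 1, the core median was -0.23, the regulatory median minus the core median 0.065, and Psma6 was the 1 member called. Hepatocyte markers summed to 78942 to 92773 CPM in WT and 63911 to 96026 in DKO, with 5 of 8 lower and 2 of them called. All 8 macrophage markers were higher in DKO (1 called), with sums of 272 to 516 CPM in WT and 372 to 619 in DKO, and so were all 6 of the endothelium and all 6 of stellate cells and fibroblasts. Of 6 lymphocyte markers 2 were measured, both higher in DKO and 0 called, with sums of at most 3.0 CPM, and cholangiocyte markers summed to at most 10.2 CPM (3 of 4 measured, 2 higher). In bulk liver, fewer cells of a type and less RNA per cell cannot be told apart, and the part of these markers in the proteasome values was not tested.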

How the data were processed

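Polyadenylated liver RNA was sequenced in 12 libraries, grouped by the genotype label. The authors deposited 1 table of log2 CPM, filtered and normalized per its file name; the filter, added count and scaling are not stated, and depth is unknown. Tools listed without roles in the submitters' processing notes are kallisto 0.46.2, edgeR and limma, with the build GRCm39 (mm39). The 1 row without a name was left out. Rows are counted as genes, and 2 symbols occurred more than once. The 3403 other genes of like level became 3402 under a minimum mean of 3 log2 CPM, so they include a row below the stated level. Near-identical gene copies could share reads, which was not examined.

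All 12284 genes were fitted with limma 3.58.1 in R 4.3.3 (eBayes with mean trend, 2-sided, no covariate), with Benjamini-Hochberg adjustment over all genes. Single genes also had an exact permutation test over 924 divisions of the libraries. Correlations used values minus group means. Promoter letters came from RefSeq (GRCm38.p6).

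Members, roles and lists were chosen with earlier results of these data known. Named genes were called members, the highest and lowest fold change in each role, proteolytic subunits, the extremes of spread, a set of 11 other genes, and the 6 genes most alike; further members are given by value. Alternatives were no mean trend, robust variances, 1 CPM added before the log, minimum mean levels of 1 or 3 log2 CPM, subtracted medians, quantile normalization, array weights, a replicate block, other particle definitions, and leaving out each library.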

Additional observations from a re-analysis of the deposited data

Results flagged for a closer look

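In 6 of 114 groups of 6 values examined, 1 library lay far from the other 5 by Dixon's criterion, which flags about 1 in 20 groups by chance. Among members, Psma5 was lowest in DKO 6, at 4.99 log2 CPM against 5.16 in the next library. Psmc3 was highest in WT 2, at 6.71 against 6.49, and in DKO 5, at 6.56 against 6.38. Psmg1 was highest in WT 6, at 3.93 against 3.79. Outside the family, Pomp was lowest in DKO 3, at 5.68 against 5.86, and Psmb10 in WT 3, at 4.27 against 4.58.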

How the results depend on the processing

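Small differences and an unknown depth limit these results: the largest member change was 0.44 on the log2 scale. The number of genes called, 214, was 138 without the mean trend, 109 with quantile normalization, 356 with array weights, and 92 to 373 with 1 library left out. Quantile normalization left 0 members called and a regulatory median of -0.057; Psma6 and Psmb5 had adjusted p-values of 0.0666 and 0.0551 there, with log2 fold changes of -0.27 and -0.40. Leaving out 1 library gave 0 to 2 called members. The core median, and the difference of the particles, moved by less than 1 SD between libraries in every alternative run. The regulatory median did not: quantile normalization took it from -0.15 to -0.057, a move larger than its SD between libraries of 0.082. The replicate block gave 397 called genes and left Psma6 and Psmb5 as the members called; same-numbered libraries had correlations of -0.077 to 0.29, and 4 of 6 WT libraries correlated best with their own number, a hint from the data only; the labels do not tie the numbers to a shared source, and they were not taken as pairs.

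Of the 43 members 8 turned sign in 1 or more alternatives. Of these, 1 was a subunit, Psma3 (0.009 with quantile normalization), and the others were Psmd5, Psmd9, Psme2, Psme3, Psmf1, Psmg2 and Psmg4; neither called member turned. The log2 fold changes were as follows. With 1 library left out, Psmf1 ran from -0.0211 to 0.0593 (below 0 without WT 1 or DKO 5), Psmg4 from -0.0874 to 0.0914 (below 0 without WT 2, DKO 4 or DKO 5) and Psmd5 from -0.101 to 0.0986 (below 0 without WT 3, WT 4, WT 5 or DKO 6). Psmb8 ran from -0.039 to 0.245 and Psmb9 from -0.0195 to 0.388, both below 0 without DKO 4. Psmb10 ran from -0.182 to 0.0142 (above 0 without DKO 1 or DKO 3), Shfm1 from -0.0578 to 0.0505 (above 0 without WT 1, WT 4, WT 5, DKO 3 or DKO 4) and Uchl5 from -0.0646 to 0.0598 (above 0 without DKO 4 or DKO 6). Subtracted medians turned Psmf1 (-1.62e-06), quantile normalization turned Psmg4 (-0.065) and Ddi2 (0.098), and array weights turned Psmb10 (0.00654) and Shfm1 (0.044). The cause was not tested.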
